A study of Mus musculus with 2 samples.

Results

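Levels of 9 genes listed for chromatin condensation and enucleation of erythroblasts were described in the liver of mouse embryos at day 13.5. The genes were taken by symbol from a fixed list, with no rule on their levels but with earlier results of these data known. They are 9 of the 43346 annotated genes: Xpo7, Rac1, Rac2, Diaph3, Hdac2, Kmt5a, Mxi1, Vim and Tmcc2. All of them had an entry in both libraries. The tissue was whole liver of healthy B6NCrl embryos, pooled from males and females, with no treatment or engineered allele named in the labels. The series holds 1 group of 2 biological replicates that share 1 donor entry, each library starting from 10 ng of total RNA above 200 nt, to which spike-ins were added. With 1 group there is no condition to compare, so values are given per library and as mean ± SD (n = 2) with no p-value, and the spread between these samples may be partly technical.

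Definitive erythroblasts mature in the fetal liver by shrinking and condensing their nucleus and then expelling it, surrounded by plasma membrane, in a step that resembles an asymmetric cell division. Histone deacetylation and the release of histones through the nuclear envelope accompany the condensation, while a contractile actin ring assembled under Rac GTPases and the formin mDia2 closes behind the leaving nucleus. In bulk tissue, fewer cells of a type and less RNA per cell cannot be told apart.

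The libraries held 39182457 and 37432977 expected counts on annotated genes, and spike-ins took 1.16% and 1.88% of all counts. Since 0 counts cannot exclude up to 3, a transcript listed at 0 could reach 0.0417 and 0.0464 TPM in the respective libraries if it is 2000 nt long. These limits cover counting only, not the division of reads among overlapping transcripts. TPM is transcript abundance corrected for transcript length and library size. All 10 erythroid marker genes reached 10 TPM in both libraries. Their median was 197 ± 25.1 TPM, and they summed to a level of 3237 and 3559 TPM. Markers of other cells of the organ were present too. Their summed levels were 16590 and 18501 TPM for 10 hepatoblast genes, 246 and 259 TPM for macrophages, 1104 and 1039 TPM for granulocytes and monocytes, 817 and 768 TPM for megakaryocytes, 105 and 126 TPM for endothelium, and 337 and 357 TPM for stellate and mesenchymal cells. No marker of these lists was below 1 TPM in both libraries. How much of each of the 9 genes came from cells other than erythroblasts was not tested.

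Nearly all Tmcc2 TPM, and a large share of that of Mxi1, was assigned to transcripts that start far inside the gene, so the windows upstream of their starts are shown first. Each is the 250 bases before a RefSeq start (GRCm38.p6), written 5′ to 3′ on the strand of the gene. Capitals mark a match on either strand to a GATA motif (AGATAA or TGATAA) or a CACC-box motif (CCNCNCCC). The Tmcc2 windows are chr1:132391387-132391636 for the upstream start, chr1:132390319-132390568 for the next and chr1:132367949-132368198 for the internal start, all on the minus strand. The Mxi1 windows are chr19:53310256-53310505 for the upstream start and chr19:53329163-53329412 and chr19:53329445-53329694 for the internal starts, all on the plus strand. Each internal window is labelled by the annotated transcript closest to its RefSeq start, Mxi1-203 for the first and Mxi1-202 for the second. The annotated start of Mxi1-202, at 53329458, is nonetheless closer to the first RefSeq start, at 53329413, than to the second, at 53329695.
Tmcc2 upstream start: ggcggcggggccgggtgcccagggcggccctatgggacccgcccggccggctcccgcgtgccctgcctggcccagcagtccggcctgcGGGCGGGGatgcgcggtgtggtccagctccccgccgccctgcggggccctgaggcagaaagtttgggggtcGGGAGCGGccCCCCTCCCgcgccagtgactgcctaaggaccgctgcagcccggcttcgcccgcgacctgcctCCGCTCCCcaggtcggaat
Tmcc2 next start: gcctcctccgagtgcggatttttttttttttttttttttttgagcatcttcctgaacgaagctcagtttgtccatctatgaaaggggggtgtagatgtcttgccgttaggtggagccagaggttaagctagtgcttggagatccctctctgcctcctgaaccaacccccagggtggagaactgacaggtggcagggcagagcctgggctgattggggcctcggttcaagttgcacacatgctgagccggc
Tmcc2 internal start: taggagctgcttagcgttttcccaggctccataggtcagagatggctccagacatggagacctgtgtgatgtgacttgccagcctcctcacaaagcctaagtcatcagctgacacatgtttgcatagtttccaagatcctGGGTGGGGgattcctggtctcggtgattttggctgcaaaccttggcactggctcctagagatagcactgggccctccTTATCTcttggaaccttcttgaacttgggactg
Mxi1 upstream start: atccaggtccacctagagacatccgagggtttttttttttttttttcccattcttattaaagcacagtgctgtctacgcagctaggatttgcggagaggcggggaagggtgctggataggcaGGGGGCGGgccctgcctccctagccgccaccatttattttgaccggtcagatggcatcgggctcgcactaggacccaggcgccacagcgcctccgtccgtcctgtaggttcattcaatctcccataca
Mxi1 internal start nearest to Mxi1-203: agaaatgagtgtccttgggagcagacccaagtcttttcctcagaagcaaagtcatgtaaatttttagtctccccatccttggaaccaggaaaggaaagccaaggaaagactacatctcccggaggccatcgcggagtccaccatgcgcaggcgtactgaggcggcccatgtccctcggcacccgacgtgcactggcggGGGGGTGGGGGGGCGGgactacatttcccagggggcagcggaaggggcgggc
Mxi1 internal start nearest to Mxi1-202: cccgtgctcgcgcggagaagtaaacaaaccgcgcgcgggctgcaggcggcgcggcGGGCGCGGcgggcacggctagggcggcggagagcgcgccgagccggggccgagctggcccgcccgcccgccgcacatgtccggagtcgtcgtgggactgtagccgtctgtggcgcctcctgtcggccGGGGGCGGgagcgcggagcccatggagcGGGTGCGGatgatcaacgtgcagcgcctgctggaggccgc

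The internal Tmcc2 window held 1 GATA motif, beginning 33 bases before the RefSeq start and read on the opposite strand, and 1 CACC-box motif beginning 110 bases before it. The upstream Tmcc2 window held 4 CACC-box motifs and no GATA motif, and the next window held neither. Base composition differed among them, with a GC content of 78.0% in the upstream window against 52.0% in the internal one. All 3 Mxi1 windows lacked a GATA motif. The upstream one held 1 CACC-box motif and each internal one held 3. GC content was 60% in the window labelled by Mxi1-203 and 77.2% in the window labelled by Mxi1-202. Mxi1-202, the transcript with the most Mxi1 TPM, has its annotated start 237 bases upstream of the RefSeq start of the latter window. Most of that window therefore lies downstream of the annotated start of Mxi1-202. RefSeq windows were found for 6 of the 9 genes, 12 windows in all, and the internal Tmcc2 window was the single one with a GATA motif. An E-box (CACGTG), the sequence bound by Myc, Max and Mxd dimers, was in none of the 12. Over all 32851 windows of this length, 16.6% held the GATA motif, 45.9% the CACC-box motif and 6.02% the E-box. A match describes these letters only and is not a measurement of binding.

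All 9 genes reached 10 TPM in both libraries, a level that 27.9% of the 21474 protein-coding genes reached. At 20 TPM 7 of the 9 remained, and the share of all protein-coding genes at that level was not computed. The median level of the 9 genes was 42.2 ± 7.39 TPM. Levels spanned from Tmcc2 at 433 ± 33.2 TPM to Diaph3 at 13.0 ± 1.65 TPM, and the order was the same in both libraries: Tmcc2, Rac1, Vim, Hdac2, Kmt5a, Xpo7, Rac2, Mxi1 and Diaph3. Neighbours overlapped over the libraries in 3 cases, Kmt5a with Xpo7, Xpo7 with Rac2, and Mxi1 with Diaph3, so their order is within the spread. The levels also depend on annotated lengths. With the counts kept and the lengths of the later GENCODE M21, an alternative chosen after the data were seen, Tmcc2 stayed the highest and Diaph3 the lowest, Xpo7 rose from the sixth to the second place, and Rac1 fell from the second to the fifth. The median was then 63.6 ± 3.31 TPM. Reads were not assigned anew to the M21 models, so these places and this median show the dependence on length only.

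**Figure D1:**
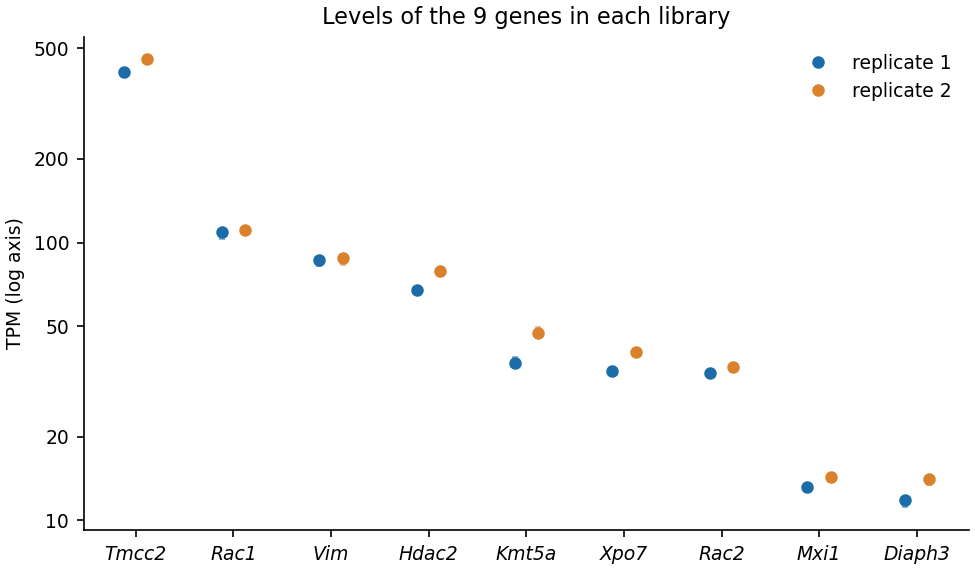
Level of each of the 9 genes in TPM (log axis) in replicate 1 and replicate 2, with the authors' deposited interval as a bar where it exceeds the point. The intervals of Xpo7 and Tmcc2 lie below the TPM value in both replicates. Tmcc2 stands at 410 and 457 TPM, above all others, and Mxi1 and Diaph3 lie lowest, between 11.8 and 14.4 TPM.

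Xpo7 (ENSMUSG00000022100.9, GRCm38 chr14:70654246-70766628, minus strand) encodes exportin 7, a Ran-dependent nuclear transport receptor that is induced late in erythroid maturation. Its level was 34.6 and 40.3 TPM in replicates 1 and 2. The values came from 19685 and 20568 counts, more counts than any other of the 9 genes except Tmcc2, spread over an annotated length of 15118 nt. Exportin 1, the general export receptor for proteins (Xpo1), stood at 45.5 and 63.0 TPM, so the log2 ratio of Xpo7 to Xpo1 was -0.52 ± 0.18. Ranbp17, the closest relative of Xpo7, stood at 3.09 ± 0.537 TPM, 11.8-fold below it.

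The Xpo7 level depends on the transcript model. The annotation used by the authors, GENCODE M4, holds 2 Xpo7 transcripts, both from the upstream start. Of the TPM, 98.8% ± 0.0153 was assigned to Xpo7-201 and the remainder to Xpo7-202. The authors' posterior SD for Xpo7-202 was 113 and 145 counts, on 236 and 246 counts in replicates 1 and 2. Short erythroid Xpo7 transcripts from an internal start are not among those 2, so they were not quantified. How reads from such transcripts were treated is not in the tables used here. In the later GENCODE M21, Xpo7 has 6 transcripts and Xpo7-201 is 4472 nt long, with a last exon of 1277 bases where that of Xpo7-202 has 11849. With all counts kept and this shorter length, an alternative chosen after the data were seen, Xpo7 would stand at 119 and 138 TPM, a mean of 129 ± 13.7 TPM. The log2 ratio to Xpo1, with Xpo1 left at its M4 length, then becomes 1.26 in place of -0.52. The ratio to Ranbp17 was not recomputed. Where along the gene the reads fell is not in the tables used here. Npm2, which shares 39 exon bases with Xpo7 on the same strand, had 4 and 3 counts.

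Among 29 nuclear exportins, importins and genes of the Ran cycle, 26 reached 10 TPM in both libraries and none was below 1 TPM in both. The list median was 29.0 ± 3.46 TPM. The highest were Ran, the GTPase that gives nuclear transport its direction, at 616 ± 53.7 TPM, its binding protein Ranbp1 at 470 ± 44.8 TPM and the import adaptor Kpna2 at 334 ± 25.7 TPM. Xpo7 lay above the list median in both libraries, at 34.6 against 26.6 TPM in replicate 1 and at 40.3 against 31.5 TPM in replicate 2.

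Rac1 (ENSMUSG00000001847.10, chr5:143503634-143528036, minus strand) encodes the ubiquitous Rac GTPase that controls branched actin assembly. The libraries held it at 109 and 111 TPM. Rac2 (ENSMUSG00000033220.6, chr15:78559167-78572783, minus strand), the Rac GTPase of blood cells, stood at 34.0 and 35.6 TPM. In each library Rac1 exceeded Rac2, with a log2 ratio of 1.66 ± 0.03, or 3.16-fold. Rac1-201 is 2315 nt long in M4 and 4159 nt in M21. With the counts kept and the M21 lengths, Rac1 stood at 63.6 ± 3.31 TPM and the log2 ratio to Rac2 at 0.87 ± 0.12. Keeping the M4 counts over a longer model lowers Rac1 by construction, since reads were not assigned anew to the M21 models. Rac3, the paralog best known from neurons, stood at 2.03 and 1.48 TPM, and Rac2 exceeded it 16.0-fold in replicate 1 and 22.6-fold in replicate 2. Rac3 rested on 72 and 48 counts, against 3785 and 3553 for Rac2.

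Rac1-201 held 93.1% ± 8.27 of the Rac1 TPM, the widest spread of any leading transcript of the 9 genes. The spread came from Rac1-204, a non-coding processed transcript, which held 12.01% of the TPM on 241 counts in replicate 1 and was listed at 0 in replicate 2. The authors' posterior SD of its count was 52.0 in replicate 1 and 12.8 in replicate 2. With coding transcripts alone, Rac1 stood at 96.1 and 111 TPM. Rac1-202, the coding form with an additional exon, held 0.901% ± 0.226 and was named after its values were seen. By the M21 model, 2309 exon bases of Rac1 overlap Daglb on the opposite strand, which had 1278 and 1193 counts. The M4 model of Rac1-201, used for the counts, is shorter, and how much of this overlap it holds was not computed. No source used here says whether strand was used in counting, so reads in the part it holds could belong to either gene.

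Of 29 exchange factors, GTPase-activating proteins, dissociation inhibitors and effectors of Rac, 10 reached 10 TPM in both libraries. The highest were the inhibitors Arhgdia, at 240 ± 10.9 TPM, and Arhgdib, the form of blood cells, at 96.6 ± 5.29 TPM, followed by Racgap1 of the cytokinetic ring at 67.2 ± 7.03 TPM. Tiam2, Dock5, Trio and Bcr, which act on Rac as exchange factors or GTPase-activating proteins, were below 1 TPM in both libraries.

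Diaph3 (ENSMUSG00000022021.9, chr14:86655367-87141235, minus strand) encodes the formin mDia2, which elongates unbranched actin filaments. Values of 11.8 and 14.1 TPM made it the lowest of the 9 genes. It was nevertheless the highest of 14 formins and the single one at 10 TPM in both libraries. Daam1 followed at 7.76 ± 1.32 TPM and Diaph1, which encodes mDia1, at 4.25 and 3.91 TPM, so Diaph3 exceeded Diaph1 by 1.64 ± 0.27 on the log2 scale. The median formin level was 0.67 ± 0.0566 TPM and 8 of the 14 were below 1 TPM in both libraries. Diaph3 reads were divided between Diaph3-201, with 79.2% ± 0.961 of the TPM, and Diaph3-202, with 20.8%, which share their start. Diaph3-202 is 3516 nt long in M4 but 4582 nt in M21, the length of Diaph3-201. In M21 each has 2 bases found in no other Diaph3 transcript, so this division rests on the M4 models.

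**Figure D2:**
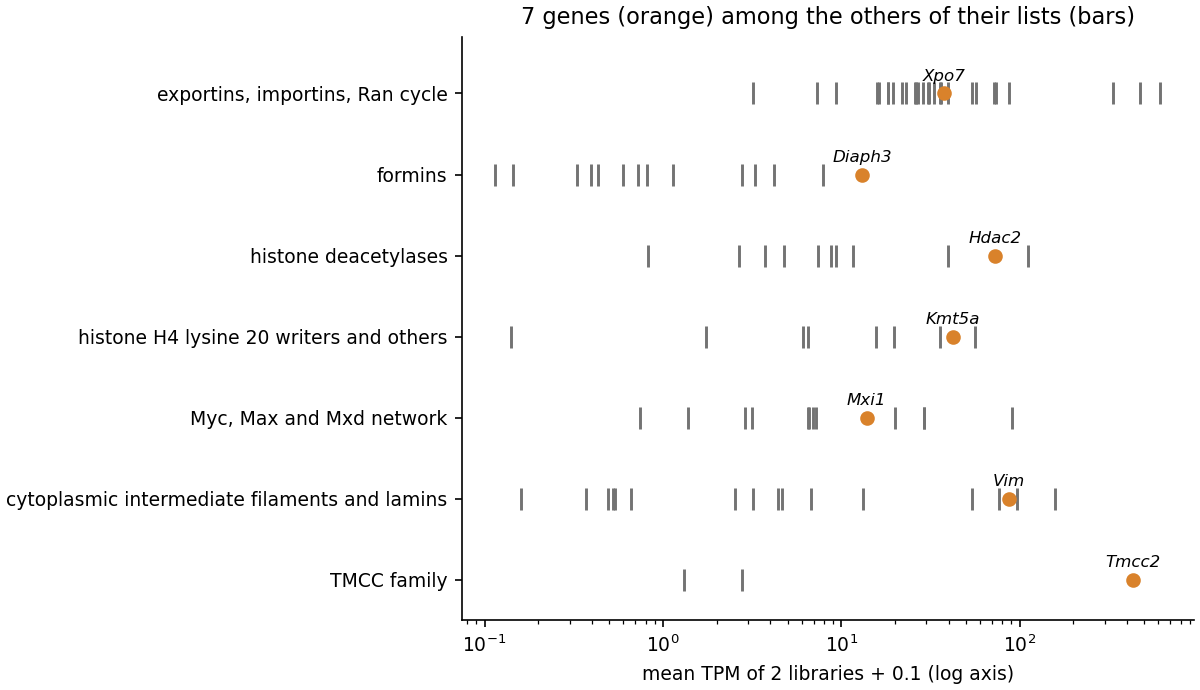
Mean TPM plus 0.1 (log axis) of each member of 7 gene lists, 1 row per list, with Xpo7, Diaph3, Hdac2, Kmt5a, Mxi1, Vim and Tmcc2 as orange points and the other genes as grey bars. Diaph3 and Tmcc2 are the highest of their lists, and Xpo7 at 37.4 TPM lies above the median of its list, 29.0 TPM.

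Hdac2 (ENSMUSG00000019777.12, chr10:36974544-37001889, plus strand) encodes a class I histone deacetylase whose activity accompanies chromatin condensation in late erythroblasts. Replicate 1 held 67.2 TPM and replicate 2 held 78.8 TPM. Hdac1, its close paralog and partner in the same complexes, was higher in both libraries, at 109 and 114 TPM, a log2 ratio of Hdac2 to Hdac1 of -0.62 ± 0.11. Hdac3, the deacetylase of the NCoR and SMRT corepressors, stood at 39.5 ± 0.467 TPM, so Hdac2 exceeded it 1.84-fold. Of 11 deacetylases, 4 reached 10 TPM in both libraries, Hdac9 was below 1 TPM in both, and the median was 8.60 ± 0.806 TPM. Hdac2-201 held 97.6% ± 2.33 of the Hdac2 TPM.

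All 25 subunits of the corepressor complexes that carry class I deacetylases were above 1 TPM, and 17 reached 10 TPM in both libraries. The histone-binding subunits Rbbp4 and Rbbp7, shared by the Sin3 and NuRD complexes, were highest at 281 ± 30.6 and 252 ± 20.2 TPM, followed by Gps2 of the NCoR complex at 100.1 ± 5.82 TPM. The median of this list was 14.9 ± 1.42 TPM.

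Kmt5a (ENSMUSG00000049327.13, chr5:124439930-124462308, plus strand) encodes Setd8, the enzyme that adds a single methyl group to lysine 20 of histone H4. Its values of 37.0 and 47.4 TPM lay further apart in proportion than those of the other 8 genes. Kmt5b and Kmt5c add further methyl groups to the same residue. Kmt5b stood at 6.45 ± 1.22 TPM, 6.46-fold below Kmt5a. Kmt5c stood at 55.4 and 57.3 TPM, above Kmt5a in both libraries, with a log2 ratio of Kmt5a to Kmt5c of -0.43 ± 0.22. Taken over expected counts, which are not corrected for length, that ratio was 0.06 ± 0.26. Of the 9 genes that write, read or erase this mark, 5 reached 10 TPM in both libraries. Dtl, which directs Setd8 to degradation in S phase, was the third highest at 35.7 ± 3.95 TPM, and L3mbtl1, a reader, was below 1 TPM in both. Kmt5a-201 held 89.5% ± 1.81 of the Kmt5a TPM and Kmt5a-202, which starts 5563 bases downstream in intron 1, held 8.59% ± 0.549.

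Mxi1 (ENSMUSG00000025025.9, chr19:53310518-53375810, plus strand) encodes a partner of Max that opposes Myc and recruits Sin3 and its deacetylases. It stood at 13.2 and 14.4 TPM. Max itself stood at 7.12 ± 0.191 TPM, 1.93-fold below Mxi1, and Mxd4, a related repressor, at 2.78 ± 0.0141 TPM. Myc stood at 79.7 and 101 TPM, far above Mxi1 in both libraries, with a log2 ratio of Mxi1 to Myc of -2.70 ± 0.16. In the network of 13 genes around Myc and Max, 5 reached 10 TPM in both libraries, with Mlx at 29.1 ± 1.35 TPM and Mxd1 at 28.9 ± 3.47 TPM after Myc, and Mycl was below 1 TPM in both. Mxi1 was the single one of the 9 genes with a posterior SD of its count above 0, at 7.84 and 6.38 counts on 2480 and 2427. It shares 194 exon bases with Gm10197 on the opposite strand, which had 17.1 and 15.1 counts.

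Vim (ENSMUSG00000026728.5, chr2:13573927-13582826, plus strand) encodes vimentin, an intermediate filament protein that anchors the nucleus and is lost as mammalian erythroblasts mature. It was measured at 86.3 and 88.3 TPM. Lmnb1, the B-type lamin of the nuclear envelope, stood at 52.7 and 55.3 TPM, and Lmna, the A-type lamin, at 149 and 165 TPM. Vim therefore lay between them, 0.69 ± 0.03 above Lmnb1 and at -0.84 ± 0.08 relative to Lmna on the log2 scale. The order of Vim and Lmnb1 depends on which transcripts are counted, since with coding transcripts alone, an alternative chosen after the data were seen, the log2 ratio was -0.18 ± 0.04. Of 17 cytoplasmic intermediate filament and lamin genes, 6 reached 10 TPM in both libraries. Lmna was the highest, Krt8, a keratin of epithelial cells, followed at 96.1 ± 11.97 TPM, and Vim was the third. The 6 genes below 1 TPM in both libraries were Prph, Synm, Ina, Nefl, Nefm and Nefh, most of them filaments of neurons.

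Vimentin is also abundant in mesenchymal, endothelial and myeloid cells. Beside the 87.3 ± 1.39 TPM of Vim, the mesenchymal collagens Col3a1 and Col1a1 stood at 116 ± 7.52 and 75.6 ± 1.38 TPM, and all 10 stellate and mesenchymal markers were above 1 TPM. The share of Vim that came from these cells was not tested. Rac2 is likewise a gene of all blood lineages, and the granulocyte genes S100a8 and Mpo stood at 436 ± 31.1 and 259 ± 13.2 TPM beside its 34.8 ± 1.09 TPM, a relation that was not tested either.

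Tmcc2 (ENSMUSG00000042066.11, chr1:132356315-132391281, minus strand) encodes a transmembrane and coiled-coil protein of the endoplasmic reticulum. It was measured at 410 and 457 TPM on 42917 and 43125 counts, and ranked 224 of 21474 protein-coding genes, with 1.04% of them above it. The other members of its family were low, with Tmcc1 at 1.11 and 1.30 TPM and Tmcc3 at 2.32 and 3.02 TPM. Tmcc2 exceeded Tmcc1 by 8.38 ± 0.04 and Tmcc3 by 7.30 ± 0.15 on the log2 scale, the widest gaps among the 16 pairs compared. Its level was close to that of Klf1, a red cell transcription factor, at 431 ± 17.4 TPM.

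Tmcc2 and Mxi1 had most of their TPM, by the M4 lengths, at internal starts. Annotated starts within 500 bases of each other were treated as 1 start group. Of the 9 genes, 6 had at least 2 such groups, and in 2 of these 6 more than 50% of the TPM belonged to starts other than the most upstream one. Among all protein-coding genes at 10 TPM with at least 2 start groups, 24.2% did so, and 2 of 6 is near that share. Vim lay just under the limit, with 47.8% and 44.1% of its TPM at its internal start, all in 1 non-coding transcript.

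For Tmcc2, starts other than the most upstream one held 99.4% ± 0.159 of the TPM. The leading transcript, Tmcc2-206, was assigned 366 and 404 TPM, or 88.9% ± 0.622, and begins 23394 bases downstream of the most upstream start, in intron 2 of Tmcc2-201. It is 2769 nt long with 4 exons, and its first exon is absent from the upstream forms Tmcc2-201 and Tmcc2-203. Tmcc2-205, a retained-intron transcript from the same start, held 6.41% ± 0.526, so that 391 and 435 TPM belonged to this start group. The upstream forms, named after their values were seen, were minor. Tmcc2-201 stood at 2.19 and 3.47 TPM, and Tmcc2-203, which starts 963 bases further in, held 3.53% ± 0.0421. The window with the GATA motif shown above lies immediately before this internal start, and the annotated start of Tmcc2-206 is 61 bases downstream of the RefSeq one. Lengths of all Tmcc2 transcripts are the same in M4 and M21.

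For Mxi1, the internal start group held 62.6% and 59.0% of the TPM, a mean of 60.8% ± 2.54. Mxi1-202, which starts 18940 bases downstream in intron 1 of Mxi1-201, held 60.5% ± 2.11, and Mxi1-201 from the upstream start held 39.2% ± 2.54. Both forms were therefore assigned reads in both libraries. The lengths of the Mxi1 transcripts differ between M4 and M21, with Mxi1-201 at 5156 nt in the first and 2627 nt in the second. With the counts kept and the M21 lengths, the internal share was 45.6% and 41.6%, below 50% in both libraries, and Mxi1 stood at 19.2 ± 1.43 TPM. Keeping the M4 counts while Mxi1-201 shortens lowers the internal share by construction. In M21, Mxi1-202 has 2602 bases found in no other Mxi1 transcript, and reads were not divided anew. The recomputed share therefore does not show which start would lead under M21. The positions given are those of M21.

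**Figure D3:**
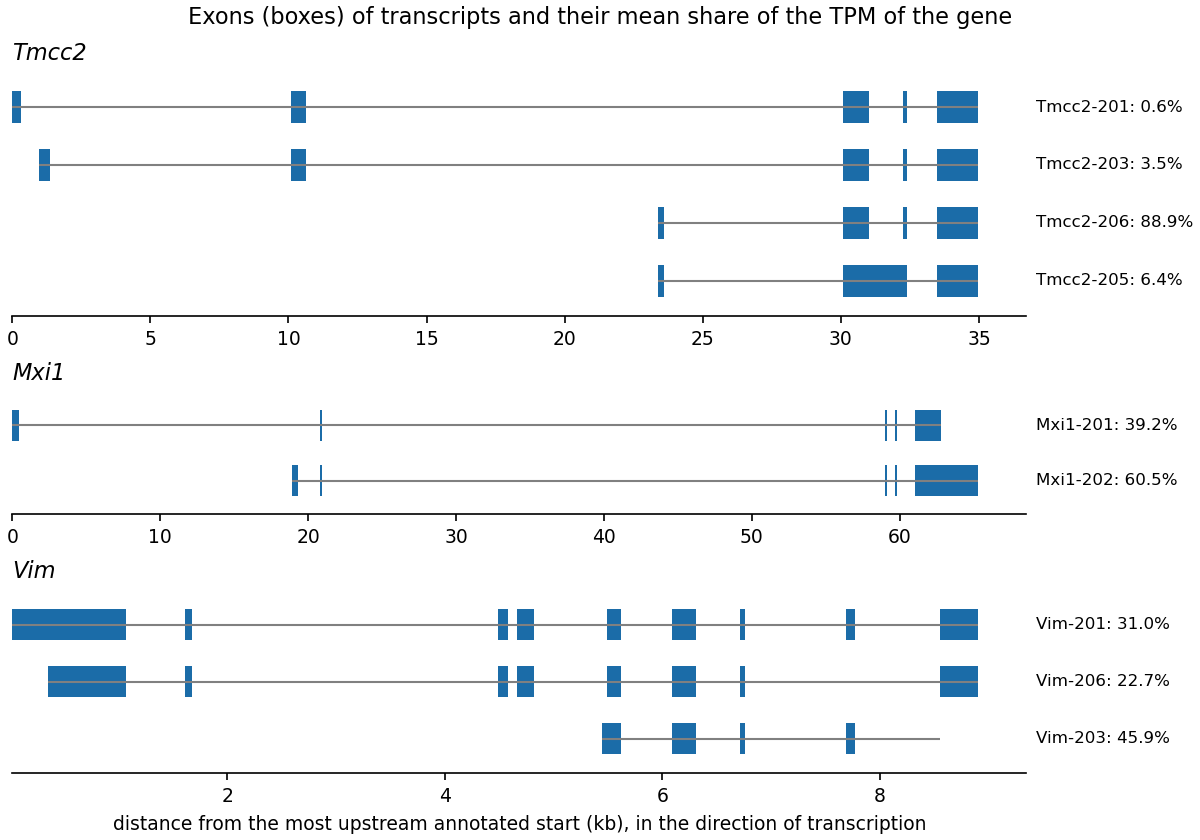
Exons (boxes) of the main transcripts of Tmcc2, Mxi1 and Vim in GENCODE M21, against the distance in kb from the most upstream annotated start, with the mean share of the TPM of the gene at the right. Tmcc2-206, with 88.9% of the TPM, begins 23394 bases inside the gene and lacks the 2 upstream exons of Tmcc2-201.

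All 8 genes with at least 2 annotated transcripts were led by the same transcript in both libraries, as were 94.1% of protein-coding genes at 10 TPM with at least 2 transcripts. The leading transcript was annotated as coding in 8 of the 9 genes, against a background of 93.8%. Vim was the exception. Vim-203, a retained-intron fragment of 535 nt, held 45.9% ± 2.62 of the Vim TPM but 16.2% ± 1.24 of its counts, since TPM gives a short transcript more weight per read. Vim-201, the full-length coding form, held 31.0% ± 1.07 of the TPM and 52.5% ± 2.82 of the counts, and Vim-206, also coding, held 22.7% ± 3.42 and 30.8% ± 4.05. With coding transcripts alone Vim stood at 44.9 and 49.0 TPM. Lengths of 26 of the 38 annotated transcripts of the 9 genes are the same in M4 and M21, and 12 differ.

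**Figure D4:**
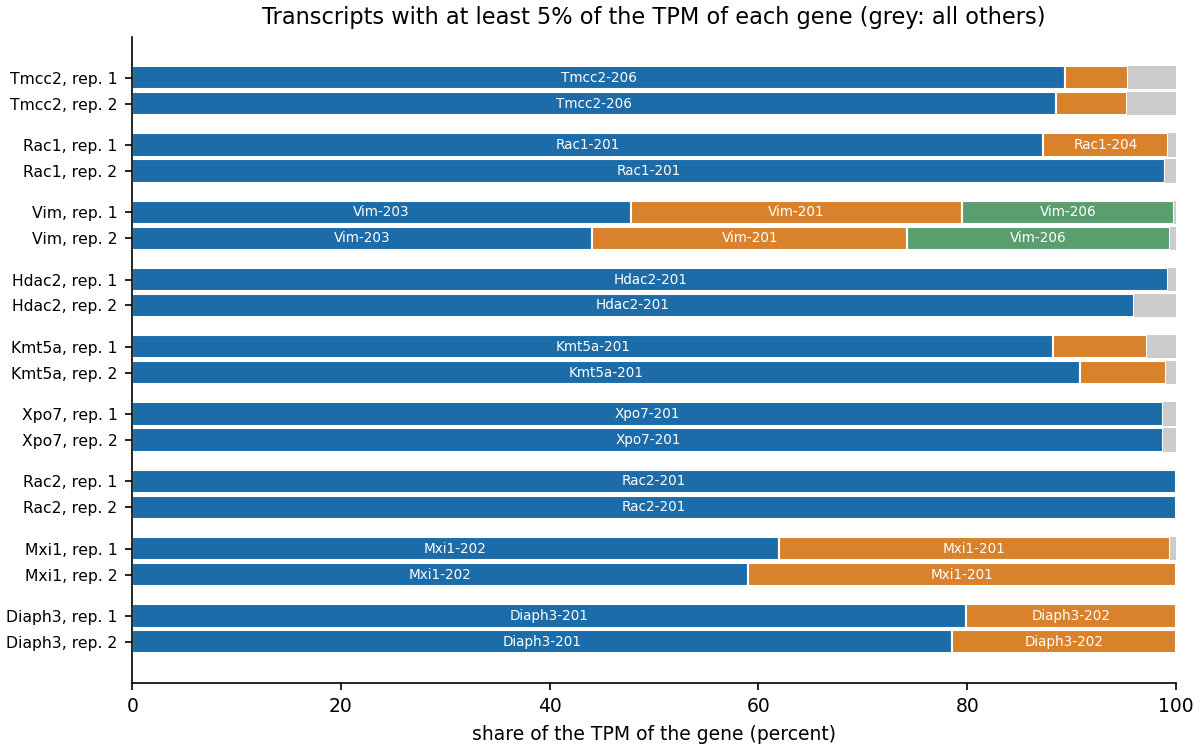
Share of the TPM of each gene (percent, horizontal axis) held by each transcript with at least 5% of it, for both replicates, with all other transcripts in grey. Rac1-204 appears in replicate 1 only, and Vim is divided among 3 transcripts in both replicates.

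All 9 TPM values were higher in replicate 2, as were 79.9% of protein-coding genes at 10 TPM. The authors deposited TPM intervals, whose level is not stated. For 6 of the 9, Xpo7, Diaph3, Hdac2, Kmt5a, Mxi1 and Tmcc2, they did not overlap between the replicates. The share of all genes without overlap was not computed, so the 6 are not read as a difference of these genes. In both libraries the TPM of Xpo7 and Tmcc2 lay above its own interval, which held the authors' posterior mean TPM. After TMM scaling, which sets the typical gene to no change, 6 of the log2 ratios of replicate 2 to replicate 1 were positive and 3 negative, and none of the 9 was at least 1.2-fold apart. Of the 15997 genes averaging at least 10 counts, 27.8% were at least 1.2-fold apart in either direction. Among genes averaging at least 1000 counts, as all 9 do, the share was 9.26%, so a count of 0 among 9 is near this background. The widest ratio was that of Kmt5a, at 0.23 on the log2 scale or 1.17-fold, with an exact 95% binomial interval of 1.12 to 1.23. Rac2 and Vim were the lowest, at 0.938-fold (0.896 to 0.983) and 0.943-fold (0.902 to 0.987). Tmcc2 was nearly equal, at 1.00-fold (0.991 to 1.02). These intervals cover counting error only. Scaled by the total of gene counts, Kmt5a passed 1.2-fold, and scaled by the spike-ins all 9 did, toward lower values in replicate 2, with the median of all genes at -0.64 on the log2 scale. Beside these ratios, the median log2 ratio over 10 markers each was 0.08 for erythroid cells, 0.17 for endothelium and -0.27 for granulocytes and monocytes. It was -0.10 for megakaryocytes, -0.08 for macrophages, -0.05 for stellate and mesenchymal cells and -0.04 for hepatoblasts. Whether cell composition has a part in the ratios of the 9 genes was not tested.

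**Figure D5:**
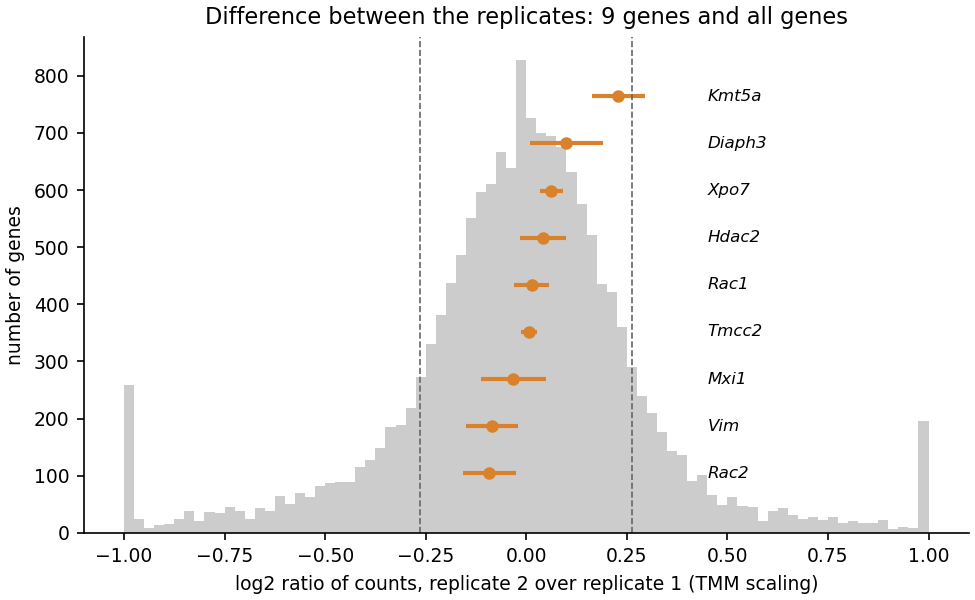
Log2 ratio of counts of replicate 2 to replicate 1 after TMM scaling (horizontal axis), as a grey histogram over all genes averaging at least 10 counts and as orange points with exact 95% binomial intervals for the 9 genes, whose height has no meaning. Values beyond 1 in size are collected in the outer bars, dashed lines mark a 1.2-fold difference, and the points of all 9 genes lie between the lines.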

How the data were processed

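Total RNA libraries of 2 liver samples were analysed from the tables of genes and transcripts deposited for each. The assembly was mm10 and the annotation GENCODE M4, per the deposited readme. Aligner, quantification tool and strand use: not given in the sources used here. The expected counts are model estimates of reads per feature made by the authors, per the file headers, and TPM values were normalised by the authors per library, per the file headers. FPKM values and the percent of each gene held by each transcript were also deposited and were not printed; shares were recomputed from TPM. Posterior SDs and TPM intervals are the authors' own, and their level is not stated.

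Symbols and coordinates come from GENCODE M21 on GRCm38, matched by gene ID (42462 of 43346 genes). Promoter windows come from RefSeq. Xpo7, Rac1 and Rac2 had no window entry. Log2 ratios between genes used TPM + 0.1. Ratios between replicates used expected counts + 0.5, rounded for scaling, with TMM factors of edgeR 4.0.16 for genes averaging at least 10 counts. DESeq2 1.42.0 size factors were an alternative, run in R 4.3.3. Tables were handled with pandas 2.3.3 in Python 3.11.15, intervals computed with scipy 1.17.1 and numpy 2.4.6, and plots drawn with matplotlib 3.10.9. The scaling step was tested on simulated data.

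The 9 genes, the 19 lists and the 16 pairs were chosen with earlier results of these data known. The result of 1 list is not reported here. Named genes were the 9, both genes of each pair, the 3 highest of each list and those below 1 TPM in both libraries, and transcripts with at least 5% of a gene's TPM. Klf1 and the transcripts said to be so were chosen after their values were seen, as was the background of genes averaging at least 1000 counts. Depth sets the precision of each ratio, and PCR reads without molecular identifiers are not independent molecules.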

Additional observations from a re-analysis of the deposited data

How the results depend on the processing

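Of 125 alternative values for 25 results, 30 moved by more than the spread between replicates, or a count by over 1.5 times, and 5 reversed. Expected counts are not corrected for transcript length. With them the log2 ratios were 1.19 for Rac1 to Rac2, 5.95 for Rac2 to Rac3, 1.28 for Diaph3 to Diaph1, 1.96 for Kmt5a to Kmt5b, 2.35 for Mxi1 to Max, 2.75 for Mxi1 to Mxd4, -1.50 for Mxi1 to Myc, -1.63 for Vim to Lmna, 5.80 for Xpo7 to Ranbp17, 8.30 for Tmcc2 to Tmcc1 and 6.87 for Tmcc2 to Tmcc3. They reversed to 0.059 for Kmt5a to Kmt5c, -0.44 for Vim to Lmnb1 and 1.21 for Xpo7 to Xpo1. A pseudocount of 1 TPM gave 3.71 for Rac2 to Rac3, 2.53 for Kmt5a to Kmt5b, 0.87 for Mxi1 to Max, 1.97 for Mxi1 to Mxd4, 3.23 for Xpo7 to Ranbp17, 7.62 for Tmcc2 to Tmcc1 and 6.89 for Tmcc2 to Tmcc3. Posterior mean TPM gave 2.52 for Kmt5a to Kmt5b, 7.90 for Tmcc2 to Tmcc1 and 7.01 for Tmcc2 to Tmcc3. Of the alternatives chosen after the data were seen, coding transcripts alone gave 1.57 for Rac1 to Rac2, -1.72 for Vim to Lmna and, reversed, -0.18 for Vim to Lmnb1. The M21 length of Xpo7 gave a median of 73.0 TPM for the 9 genes and, reversed, 1.26 for Xpo7 to Xpo1. The M21 lengths of all 9 genes gave a median of 63.6 TPM, 0.87 for Rac1 to Rac2 and an internal share of 43.6% for Mxi1, whereas that of Tmcc2 stayed at 99.4%. All M21 alternatives kept the counts assigned under M4, so they show the dependence on length only. At a threshold of 20 TPM, 7 genes remained of 9, and the share of all protein-coding genes at that level was not computed. The number of the 9 genes at least 1.2-fold apart between replicates was 0 with TMM, 1 (Kmt5a) with the total of gene counts and 9 with the spike-ins, a scaling under which the median of all genes was -0.64. The 125 values include 21 without replicate 1 and 21 without replicate 2, none of which moved. With 2 replicates, leaving one out returns the value of the other library and says nothing about stability, and the internal share of Xpo7 is 0 by its annotation under every setting. No paired analysis was possible because the labels define 1 group. Transcript shares rest on the authors' division of reads among overlapping transcripts. Starts that M4 does not annotate have no entry of their own, so no share could be computed for them. How reads from such starts were treated is unknown.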

Other observations

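Other genes of enucleation and condensation were abundant in the same libraries. Of 28 actomyosin, vesicle and adaptor genes linked to enucleation, 26 reached 10 TPM in both libraries, and their median was 52.7 ± 2.35 TPM (SD, n = 2). The highest were Actb, cytoplasmic actin, at 3020.3 ± 119 TPM, and the actin regulators Pfn1 at 1291 ± 112 TPM and Cfl1 at 1066 ± 51.5 TPM. Of 20 chromosome condensation genes, 19 reached 10 TPM in both libraries, and their median was 100.4 ± 7.09 TPM. Hmgb1 stood at 714 ± 136 TPM, Banf1, which bridges chromatin and the nuclear envelope, at 332 ± 1.202 TPM, and Hmgb2 at 301 ± 46.3 TPM. These lists are also read in dividing cells of every lineage of the organ, and their part in erythroblasts was not tested.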
